A study of Mus musculus with 48 samples.

Results

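The comparison described here set a long glutamine run against a short one, both carried by a protein directed to the nucleus. The protein was the first exon of huntingtin joined to a nuclear localization signal (NLS). In mouse line S46 it held 142 glutamines (142Q), and in line X50 it held 18 (18Q). The measure was the transgenic minus control difference in S46 at 10 months, less the same difference in X50 at 16 months, and autosomal genes were described. It drew on 12 of the 48 cerebellar arrays of the series, 3 transgenic and 3 control arrays in each line, with 1 animal per array.

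The S46 transgenic animals carried the 142Q construct, were 10 months old and were labelled female, and their nontransgenic controls were of the same age and labelled sex. The X50 transgenic animals carried the 18Q construct, were 16 months old and were labelled male, as were their nontransgenic controls. The series describes controls as littermates. The promoter that drove the transgenes was not given in the sources used here, each construct was represented here by 1 line, and the labels give S46 transgenic and S46 control animals different F codes, whose meaning is not stated. Age, labelled sex, line, scan day and chip lot differed between S46 and X50 (1 S46 control shared the X50 lot), so glutamine length cannot be told apart from them.

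A glutamine run in huntingtin that is longer than normal causes Huntington's disease, and fragments of the expanded protein gather in the nucleus of neurons. Purkinje cells are the output neurons of the cerebellar cortex. They handle large calcium signals with dense calcium stores, pumps and binding proteins, and receive their main excitatory input from granule cells.

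Several facts of the arrays bear on every result. The 3 S46 transgenic arrays, labelled female, had Xist signals of 33.4 to 58.4, whereas their controls had 1844 to 2337. Xist is the RNA that silences an X chromosome in female cells. The Y-linked gene Eif2s3y read 304 to 416 in those transgenic arrays and 8.70 to 36.7 in the controls. All 6 X50 arrays matched their label. In all, 3 of the 21 arrays labelled female lacked Xist and 0 of the 27 labelled male had it. Whether the sex labels of these 3 S46 arrays or the arrays themselves were assigned wrongly was not settled. Their labels of line, age and genotype were kept, and every S46 value at 10 months rests on them. If those labels hold, sex and genotype moved together in S46 at 10 months and cannot be told apart within it. A fit with sex taken from Xist as a term is given below. By Xist, sex did not vary within any group of the comparison, so that term was estimated from arrays outside it. The fit therefore cannot separate sex from genotype in S46 at 10 months. The record file of S46 control 1 carried the scan day of the A39 arrays at 4 months, and that of a 4-month A39 control carried the S46 day. The signals of S46 control 1 correlated at 0.967 with the other S46 controls, so its label was kept. With the 4-month A39 controls, the questioned array among them, they correlated at 0.934. The questioned A39 control correlated at 0.943 with the S46 controls and at 0.948 with the other 4-month A39 controls. These lie close together and do not settle that array, whose label was kept too. Gapdh 3' to 5' ratios, a sign of RNA quality, were 0.83 to 0.94 in S46 transgenic arrays and 0.88 to 0.90 in their controls, which overlap. They were 0.88 to 0.94 in X50 transgenic arrays and 0.80 to 0.84 in X50 controls, which do not, so this ratio moved with genotype in X50; its part in the X50 effects was not tested. The actin ratios overlapped in both lines, and the mean correlation of an array with its own group was 0.958 to 0.971.

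Among the genes lower in S46 relative to X50 were 6 of 14 measured Purkinje cell genes and 5 of 18 measured calcium-handling genes, with Inpp5a in both lists. Of all tested probe sets 0.47% were lower. The lists were chosen with earlier results of these data known. Of 7453 probe sets tested with limma, 38 passed an adjusted p of 0.05 in the difference (0.51%). Of these, 35 were lower in S46 relative to X50 (0.47%) and 3 were higher (0.0403%). At an unadjusted p under 0.05 there were 568. The autosomal probe sets with 1 gene symbol numbered 29, for 27 genes, of which 25 were lower and 2 higher. Another 8 probe sets had no single symbol and 1 was X-linked. With array weights in the fit 157 passed, 94 lower and 63 higher. Without S46 transgenic 2 the count was 24, and with sex as a term it was 29, of which 27 were among the 38.

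**Figure D1:**
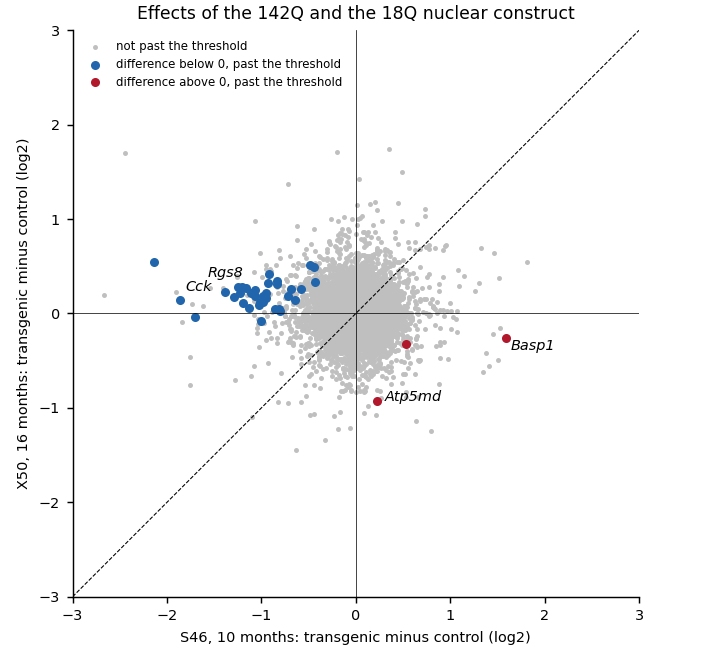
Transgenic minus control (log2) in S46 at 10 months on the horizontal axis and in X50 at 16 months on the vertical axis, 1 point per probe set, with the line of equal effects dashed. The 35 probe sets past the threshold with a difference below 0 (blue) lie left of the line, at S46 effects of -2.13 to -0.43 and X50 effects of -0.08 to 0.54; 3 probe sets lie outside the plotted range.

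Promoter sequence is shown for the 4 lower genes with the largest falls among the 12 named for the size of their fall that have 1 listed start in RefSeq (build GRCm38.p6). Each line gives the 250 bases before the start, 5' to 3' on the gene's own strand. Capitals mark the motif GGGCGG that Sp1 reads, the core motif TGACG that CREB reads and the motif AGGTCA that nuclear receptors read, each on either strand. The windows are chr9:121495695-121495944 on the minus strand for Cck, chr11:72960919-72961168 on the plus strand for Atp2a3, chr10:78780246-78780495 on the plus strand for Slc1a6 and chr16:34514028-34514277 on the minus strand for Kalrn.
Cck: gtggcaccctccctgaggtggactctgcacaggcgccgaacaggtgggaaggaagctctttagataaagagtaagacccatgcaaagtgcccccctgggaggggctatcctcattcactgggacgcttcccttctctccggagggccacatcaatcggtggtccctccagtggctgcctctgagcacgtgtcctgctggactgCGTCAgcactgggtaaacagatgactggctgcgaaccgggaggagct
Atp2a3: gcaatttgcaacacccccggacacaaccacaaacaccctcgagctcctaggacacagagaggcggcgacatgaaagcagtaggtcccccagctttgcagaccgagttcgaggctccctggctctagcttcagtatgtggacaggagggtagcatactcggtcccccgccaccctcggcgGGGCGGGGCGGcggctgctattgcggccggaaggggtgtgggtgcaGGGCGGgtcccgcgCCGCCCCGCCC
Slc1a6: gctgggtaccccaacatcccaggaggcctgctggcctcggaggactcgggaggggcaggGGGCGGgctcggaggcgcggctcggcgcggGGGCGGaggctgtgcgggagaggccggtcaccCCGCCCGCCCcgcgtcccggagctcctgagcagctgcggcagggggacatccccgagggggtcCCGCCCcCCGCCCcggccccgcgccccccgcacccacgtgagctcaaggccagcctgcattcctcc
Kalrn: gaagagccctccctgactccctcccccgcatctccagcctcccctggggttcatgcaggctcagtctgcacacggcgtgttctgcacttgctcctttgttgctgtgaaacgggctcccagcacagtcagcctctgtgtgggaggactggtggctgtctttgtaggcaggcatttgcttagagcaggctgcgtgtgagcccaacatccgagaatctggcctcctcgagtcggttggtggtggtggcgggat
GGGCGG or its complement occurred 5 times in the Atp2a3 window and 6 times in that of Slc1a6, TGACG once in that of Cck, and the Kalrn window held none of the 3 motifs. Of 25 lower genes 21 had windows, 30 in all. GGGCGG was in 15 of these 30, against 32.7% of all 32851 windows. TGACG was in 9 of 30, against 17.8%, and AGGTCA in 6 of 30, against 14.0%. These are matches of letters, with several windows from some genes, and they were not tested.

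The largest fall among autosomal genes with 1 symbol was that of Cck, which encodes the neuropeptide cholecystokinin. Its signal was 302, 249 and 490 in the 3 S46 transgenic arrays and 1222, 1218 and 1339 in their controls. In X50 it was 1784, 1788 and 1941 with the transgene and 1498, 2130 and 1442 without. The S46 groups did not overlap and the X50 groups did. The log2 difference was -2.00 (SE 0.37, limma adjusted p = 0.00155), made of -1.86 in S46 and 0.14 in X50.

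Rgs8, a regulator that shortens G protein signals and is made in Purkinje cells, had the lowest adjusted p among the named genes. It read 2559, 2396 and 2940 in the S46 transgenic arrays and 5291, 5386 and 5852 in the controls. In X50 it read 5030, 5109 and 5443 with the 18Q transgene and 4941, 4390 and 3872 without. S46 transgenic arrays lay below every other array of the comparison, while X50 transgenic arrays lay just above their controls. The log2 difference was -1.31 (SE 0.17, adjusted p = 6.91e-06).

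Calb1 encodes calbindin, the calcium buffer that fills Purkinje cells. Its signal was 3919, 3239 and 3893 in S46 transgenic arrays against 7459, 6999 and 7987 in controls. In X50 it was 7190, 8237 and 8497 against 7618, 7428 and 7433. The S46 transgenic arrays were at 49.2% of control on the fitted scale, and the X50 groups overlapped. The log2 difference was -1.11 (SE 0.15, adjusted p = 1.83e-05).

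Homer3 encodes a scaffold that ties metabotropic glutamate receptors to calcium stores. It read 746, 578 and 726 in S46 transgenic arrays against 1518, 1537 and 1675, and 2024, 1608 and 1855 in X50 transgenic arrays against 1576, 1786 and 1685. The S46 groups did not overlap and the X50 groups did. The log2 difference was -1.31 (SE 0.19, adjusted p = 6.01e-05).

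**Figure D2:**
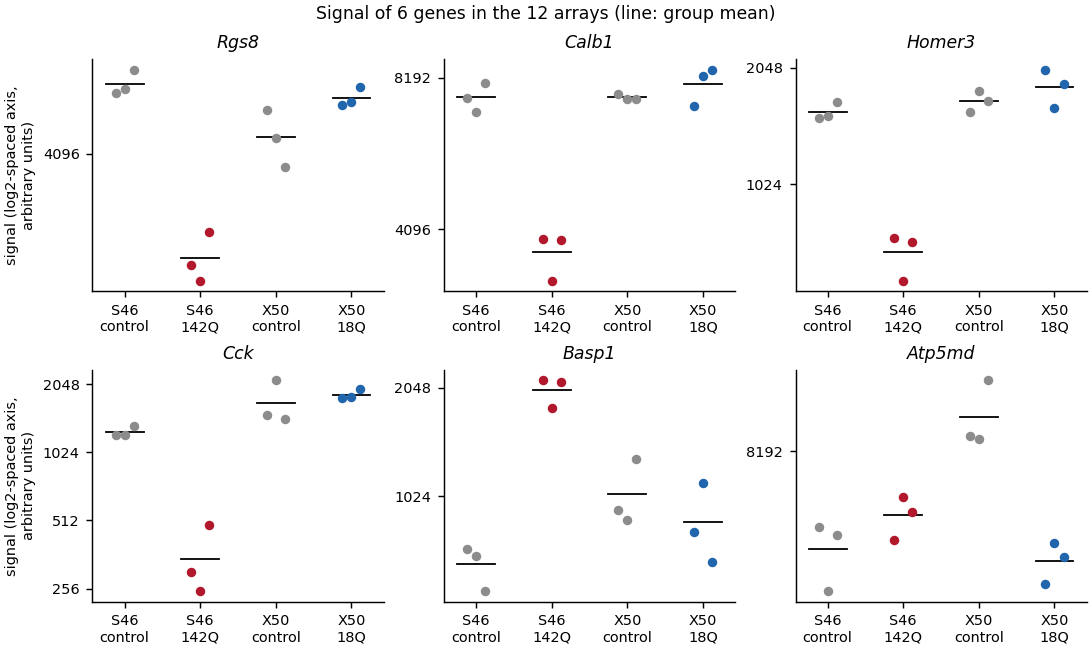
Signal (arbitrary units, log2-spaced axis) of 6 genes in the 12 arrays, 1 point per array and a line at the group mean. Rgs8, Calb1, Homer3 and Cck are low in the 3 S46 142Q arrays only, Basp1 is high in them, and Atp5md is low in the X50 18Q arrays relative to X50 controls.

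The Purkinje cell list had 14 measured genes. In the difference 6 of them fell, against 0.47% of all tested, 0 rose and 8 did not pass; the list's median was -1.14, beside -0.0036 for all tested probe sets, and all 14 were below 0. The 6 were Slc1a6, Rgs8, Homer3, Calb1, Ppp1r17 and Inpp5a. Slc1a6, the glutamate transporter of Purkinje cell spines, fell by 1.43 on the log2 scale (SE 0.24, adjusted p = 0.000328). Ppp1r17, a phosphatase inhibitor activated by cyclic GMP signalling, was at -1.19 and -1.52 on its probe sets, both past the threshold. Inpp5a removes a phosphate from the messenger IP3, and its probe sets were at -1.17 and -1.13. Pcp2, a G protein modulator restricted to Purkinje cells and retinal bipolar cells, fell by 1.47 on 1 probe set (adjusted p = 0.000294); the brighter probe set, which the list counts, was at -0.34 and did not pass. Car8, a partner of the IP3 receptor, was at -1.35 with an adjusted p of 0.0534.

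Taken separately, 8 of the 14 Purkinje genes passed as lower in S46 (0.765% of all probe sets were), with a median of -1.001. In X50 0 passed in either direction (0.0268% of all probe sets did), the median was 0.12 and 11 were above 0. The summed signal of the 14 was 42786 to 47668 in S46 transgenic arrays and 73385 to 78594 in their controls. In X50 it was 76799 to 81260 with the transgene and 74664 to 79373 without, so these groups overlapped. In bulk tissue, fewer Purkinje cells and less RNA per Purkinje cell cannot be told apart.

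**Figure D3:**
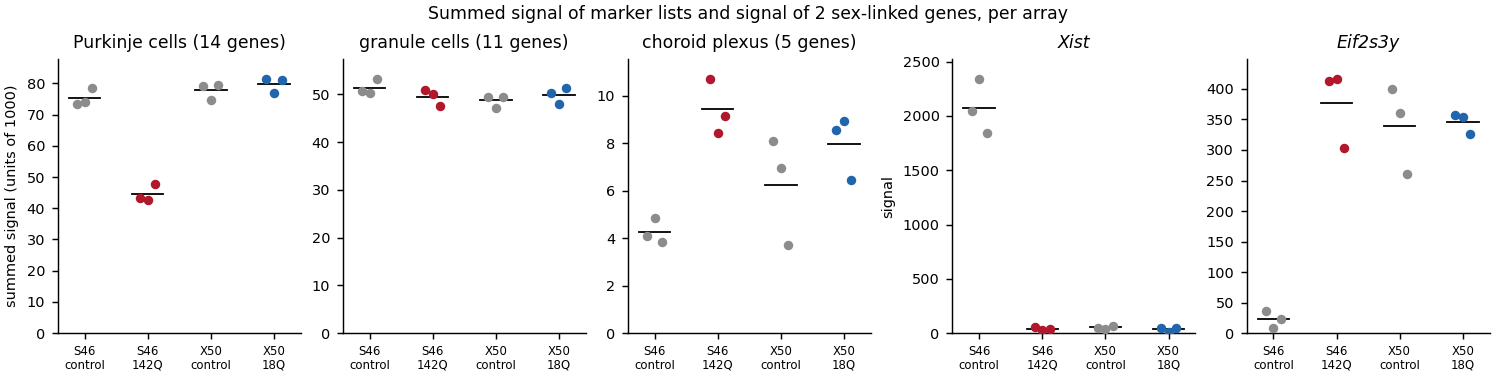
Summed signal (in units of 1000) of 3 marker lists, and signal of Xist and Eif2s3y, in each array, with a line at the group mean and axes from 0. The Purkinje sum is low in the S46 142Q arrays, the granule cell sum lies between 47238 and 53166 in all 12, the choroid plexus sum is higher in S46 142Q than in S46 control arrays, and Xist is present in the S46 controls alone.

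Calcium handling was the other list with several changed members. Of 18 measured genes 5 fell, against 0.47% of all tested, and 0 rose, with a median of -0.48. In all 16 were below 0. Hpca was at 0.52 and Ryr3 at 0.34, and neither passed. A second Ryr3 probe set was at 0.98 and did not pass (limma adjusted p = 0.16). In S46 alone 5 passed as lower (0.765% of all probe sets did), with a median of -0.29. In X50 0 passed (0.0268% of all probe sets did), with a median of 0.13. Atp2a3 and Atp2a2 encode pumps that load calcium into the endoplasmic reticulum, and fell by 1.45 (SE 0.23, adjusted p = 0.000156) and 1.25 (SE 0.23, adjusted p = 0.00155). Ryr1 encodes a calcium release channel of that store and fell by 1.15; with sex as a term it was at -1.02 and did not pass (adjusted p = 0.0942). Hpcal1, a neuronal calcium sensor, fell by 0.95, and Inpp5a is the fifth. Inpp5a, Cacna1a and Cacna1g are in both lists. Atp2a3 had a second probe set at -1.33 with an adjusted p of 0.18.

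Atp2a3 read 1472, 1050 and 1446 in S46 transgenic arrays and 2905, 3109 and 3275 in controls. In X50 it read 3145, 2700 and 2930 against 2688, 2595 and 2242. The direction differed between the lines, and in each the groups did not overlap, but the X50 rise did not pass the test (log2 0.22, adjusted p = 0.86).

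Further falls were seen outside these lists. Kcnma1, the pore of the BK potassium channel, fell by 1.18 (SE 0.16, adjusted p = 1.45e-05) and was the 1 of 16 channel genes to pass. Its control level was itself higher in S46 than in X50, by 0.75 (adjusted p = 0.000121). The controls of the lines differed in 7 of the 38 probe sets, against 5.39% of all tested. Kitl, the ligand of the Kit receptor, fell by 1.32 (adjusted p = 0.000247). Kalrn, which encodes a protein of dendritic spines, fell by 1.34 (adjusted p = 0.0289); with sex as a term it was at -1.39 and did not pass (adjusted p = 0.0517).

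The other lower genes were Rreb1, Fam107b, Cacng2, Zcchc7, Ptprm, Ywhah, Washc2, Rmdn3, Zdhhc14 and Lhx1, with log2 differences of -1.17 to -0.77. Cacng2 encodes stargazin, which carries AMPA receptors to the membrane, Ywhah a 14-3-3 adaptor, Washc2 a part of the endosomal WASH complex and Lhx1 a homeodomain factor. These 10, with Calb1 and Hpcal1, were named after their values were seen. Cacng2, Zcchc7 and Lhx1 did not pass in S46 alone (log2 -0.48, -0.44 and -0.43), and their X50 values were 0.52, 0.49 and 0.34. Control levels were higher in S46 than in X50 by 0.63 for Cacng2 and 0.88 for Zcchc7 (limma adjusted p = 0.0205 and 0.000651). For Lhx1 that value was 0.08 and did not pass. A second Zcchc7 probe set was at 0.76, of opposite sign, and did not pass (limma adjusted p = 0.919). A second Ptprm probe set was at -0.87 and did not pass (limma adjusted p = 0.148).

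How firmly the calls stood varied. Of the 27 genes 15 passed in every alternative setting and 18 when each array was left out in turn, and 0 changed sign. Scan day as a term with 2 record files exchanged gave back the main fit, since each group then had 1 scan day. Values without rescaling gave the same 38 probe sets. Both are counted among the alternatives, though they could hardly lose a call. The call was lost in 18 of 26 alternatives for Rreb1, 17 of 26 for Zcchc7, 14 of 26 for Kalrn, 15 of 27 for Lhx1, 12 of 27 for Zdhhc14, 11 of 27 for Cacng2, 10 of 27 for Rmdn3 and 8 of 27 for Ryr1. Hpcal1 lost it in 4, Ptprm in 3, and Atp2a2 and Basp1 in 1 each. With sex as a term, Kalrn, Rreb1, Ryr1, Zcchc7, Ptprm, Rmdn3 and Zdhhc14 did not pass. None of the 38 probe sets had a male minus female difference that passed in limma, and 4 of all 7453 tested did. At that share 0 of 38 is the usual count. The male minus female difference was estimated from arrays outside the comparison, so nothing is read from it for S46 at 10 months.

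**Figure D4:**
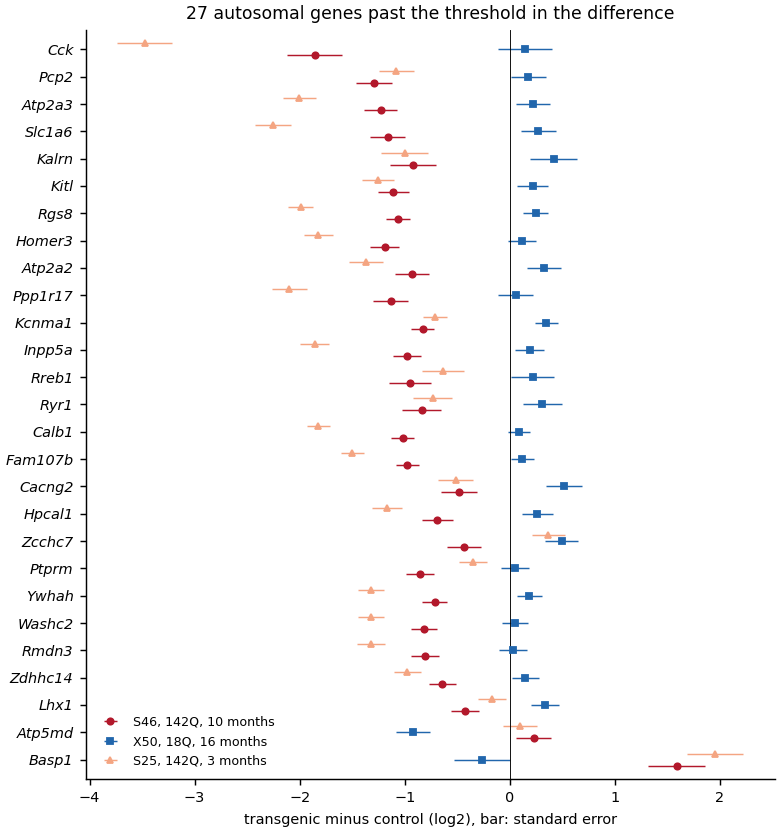
Transgenic minus control (log2, bar: SE) of the 27 genes in S46 at 10 months, X50 at 16 months and S25 at 3 months, ordered by the difference between the first 2. The S46 values of the 25 lower genes run from -1.86 for Cck to -0.43 for Lhx1, and their X50 values lie above 0.

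The higher genes were Basp1 and Atp5md. Basp1, a membrane protein of growth cones, read 2152, 1797 and 2130 in S46 transgenic arrays and 733, 701 and 559 in controls. In X50 it read 814, 1118 and 674 against 938, 882 and 1299, with overlap. It rose by 1.85 in the difference (SE 0.38, adjusted p = 0.00759), and a second probe set was at 0.38 and did not pass.

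Atp5md, a small subunit of mitochondrial ATP synthase, read 4514, 5417 and 5098 in X50 transgenic arrays and 8761, 8637 and 11268 in X50 controls. In S46 it read 5505, 6674 and 6226 against 5818, 4364 and 5624. Here the X50 groups were apart and the S46 groups overlapped. The difference of 1.15 (SE 0.23, adjusted p = 0.00578) came with an X50 effect of -0.92 and an S46 effect of 0.23, and the S46 controls were below the X50 controls by -0.86 (adjusted p = 0.00113). Its probe set carries the f suffix, as do those of Rgs8 and Hpcal1, which in Affymetrix naming marks probes that can match related transcripts.

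Each line's effect was also tested alone. In S46, 74 probe sets passed (0.993%), 17 higher and 57 lower; without S46 transgenic 1, transgenic 2 or control 3 there were 44, 43 and 49. In X50, 2 passed (0.0268%), both lower, and 550 were under an unadjusted p of 0.05. These were Atp5md and Ndufb9, a subunit of respiratory complex I, which read 1714, 1921 and 1607 with the transgene and 2768, 2498 and 3316 without (log2 -0.70, adjusted p = 0.0427). Without X50 transgenic 1, transgenic 3 or control 3, 0 passed in X50.

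Of the 35 lower probe sets, 32 also passed as lower in S46 and 0 passed in X50. All 35 had every S46 transgenic array below every control, against 9.1% of all probe sets. The X50 effect was above 0 in 33, against 50.9% of all, with a median of 0.22. In 10 all X50 transgenic arrays lay above all controls, against 8.16% of all, and in 0 below, against 8.12%. The calls were made on the S46 effect less the X50 effect, which favours X50 values above 0, so nothing is read from these counts.

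Genes that passed in S46 without passing in the difference are given as values. Marcks, a protein kinase C substrate that binds actin, read 1965, 1755 and 1646 in S46 transgenic arrays against 525, 714 and 613, and its difference was 1.14 (adjusted p = 0.118), with an X50 effect of 0.38. Kcnk2, a two-pore potassium channel, was at 1.07 (adjusted p = 0.144). Hk2, a hexokinase, was at -1.29 (adjusted p = 0.297), and Npy, a neuropeptide, at -0.89 (adjusted p = 0.219). Mouse Htt was at -0.17 and -0.47 on its probe sets and passed on neither.

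Animals outside the comparison gave the same measure for the 35 lower probe sets. S25 is a second NLS line with 142Q, sampled at 3 months against controls of 2.5 to 3 months, 3 and 3. Its transgenic animals were labelled male, and 2 of its 3 controls female, so sex was unbalanced there too. There 34 of the 35 were below 0, against 48.2% of all probe sets, and 30 passed as lower, against 2.19%; their median was -1.32. In S46 at 3.5 months, 4 and 4, 14 were below 0, against 50.1%, and the median was 0.01. At that age 0 of all probe sets passed in limma and 835 were under an unadjusted p of 0.05.

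**Figure D5:**
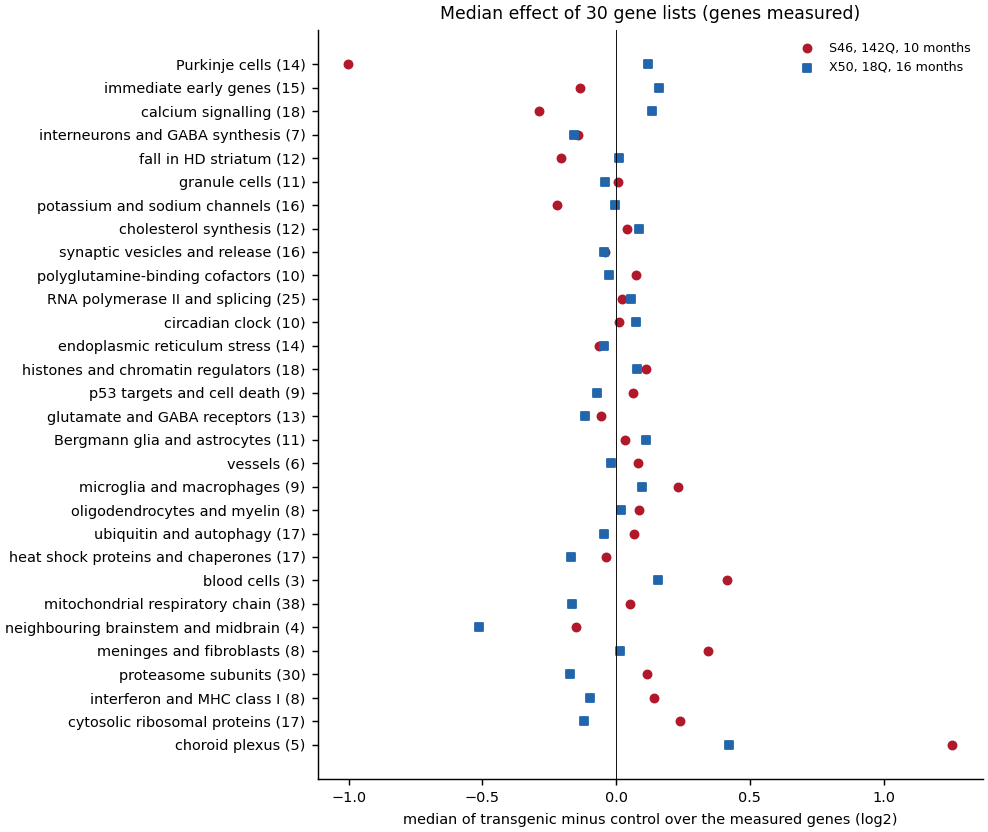
Median transgenic minus control (log2) over the measured genes of 30 lists, in S46 at 10 months (circles) and X50 at 16 months (squares), with the number of genes in brackets. The Purkinje cell list is at -1.001 and 0.12, and the choroid plexus list at 1.26 and 0.42.

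In the other cell type and pathway lists at most 1 member passed in the difference, against 0.51% of all tested probe sets. At that share a count of 0 is usual for lists of these sizes, so it is not read as absence of change. Of 11 granule cell genes 0 passed in the difference and the median was -0.14. Gabra6, the granule cell GABA receptor subunit, was at 0.14 and at -0.11 on its probe sets and passed on neither. In S46 alone 1 of the 11, Cbln1, passed as lower (log2 -0.49, limma adjusted p = 0.0348), against 0.765% of all probe sets. Its difference was -0.41 and did not pass. Of 9 microglial genes 0 passed, with a median of 0.12, and of 11 genes of Bergmann glia and astrocytes 0 passed, with a median of 0.10 and Gfap at -0.22. Among 30 proteasome subunits, 17 chaperones and 38 respiratory chain subunits 0 passed, with medians of 0.27, 0.15 and 0.20. Of 15 immediate early genes 0 passed, 11 were below 0 and the median was -0.55, which ran from -0.69 to -0.19 over the alternatives. Of 7 interneuron genes and 17 ribosomal protein genes 0 passed, with medians of -0.31 and 0.34. Besides the Purkinje and calcium lists, a member passed only in the channel list (Kcnma1) and in the list of genes that fall in Huntington's disease striatum (Ryr1).

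Choroid plexus is tissue that can come along with a dissected cerebellum. Of its 5 measured markers 0 passed, against 0.51% of all tested probe sets, and the median difference was 0.64. Ttr, its main secreted protein, read 4633, 3381 and 4109 in S46 transgenic arrays and 948, 1528 and 995 in controls, and 4266, 4383 and 2740 against 4031, 3749 and 1086 in X50. The summed signal was 8428 to 10696 against 3821 to 4849 in S46 and 6465 to 8960 against 3706 to 8087 in X50. With sex as a term the median was -0.18. The part of this tissue in the results above was not tested.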

How the data were processed

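Cerebellar RNA was measured on Affymetrix MG-U74Av2 arrays. The authors deposited 1 linear intensity per probe set and array, made with MAS5 per the submitters' processing notes; its version is not given in the sources used here. The 2% trimmed means were 500.2 to 500.3 in all arrays. Other text fields of the deposited record files gave 6 scan days and 2 chip lots. Intensities were rescaled to a common trimmed mean, 18.7 (their 10th percentile) was added and log2 taken, so that changes of dim genes are understated. Of 12488 probe sets, 66 controls and those with a mean below the 40th percentile were left out, leaving 7453. limma 3.58.1 in R 4.3.3 fitted 1 mean for each of 14 groups over 48 arrays (lmFit, eBayes, 34 residual degrees of freedom). Tests were two-sided, with Benjamini-Hochberg adjustment over all tested probe sets and a threshold of 0.05. The fit was run on simulated data with independent normal noise around group means. That run cannot speak to sex, scan day or RNA quality in the real arrays. Symbols came from the platform table and RefSeq gene identifiers (10855 probe sets with 1 symbol, 396 with several, 1237 with none).

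Named genes were the 12 largest rises and falls past the threshold, autosomal with 1 symbol, with Htt, up to 4 passing members of each list, and the 6 largest rises and falls in each line. Each gene named for passing was named by the brightest of its passing probe sets, also where a brighter one did not pass. Lists use the brightest probe set of all. The members, lists, tests and promoter windows were chosen with earlier results of these data known. Alternatives covered the arrays fitted, normalization, pseudocount, filter, moderation, weights, replicate block, scan day and each array left out. Sex as a term and 2 exchanges of arrays or records were added after seeing the data. Arrays carry no read depth, and the number of animals limits the precision.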

Additional observations from a re-analysis of the deposited data

Results flagged for a closer look

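The S46 effect differed from the X50 effect in 38 probe sets by the test of the difference itself, and each named gene among them was picked out for that reason. Among calcium pumps, a release channel, a buffer and a sensor the log2 differences were -1.45 for Atp2a3, -1.25 for Atp2a2, -1.15 for Ryr1, -1.11 for Calb1 and -0.95 for Hpcal1. The potassium channel gene Kcnma1 was at -1.18. Among signalling genes they were -2.00 for Cck, -1.47 for Pcp2, -1.32 for Kitl, -1.31 for Rgs8, -1.31 for Homer3, -1.19 for Ppp1r17, -1.17 for Inpp5a and -0.90 for Ywhah. The brighter Pcp2 probe set was at -0.34 and did not pass. The transporter Slc1a6 was at -1.43, the spine protein gene Kalrn at -1.34, the receptor phosphatase Ptprm at -0.90 and stargazin (Cacng2) at -0.9999. The transcription factors Rreb1 and Lhx1 were at -1.17 and -0.77. The values of Fam107b, Zcchc7, Washc2, Rmdn3 and Zdhhc14 were -1.10, -0.93, -0.86, -0.84 and -0.79. The higher genes were Atp5md at 1.15 and Basp1 at 1.85.

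The Y-linked gene Eif2s3y lies outside the autosomal comparison. Its lowest signal in the S46 transgenic arrays at 10 months, which are labelled female, was 303.9, above the 8.70 to 36.7 of their controls.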

How the results depend on the processing

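In the difference, 38 probe sets passed. Array weights gave 157 (94 lower and 63 higher, against 35 and 3), with 370 in S46 (74 without weights) and 11 in X50 (2 without weights). Scan day as a random block gave 38, 84 and 2. Apart from S46 control 1 and A39 control 2, whose records are in question, each group had 1 scan day. Scan day as a term or as a block therefore cannot separate scan day from group. The counts in X50 fell to 1 with no filter, with scan day as a term and with sex from Xist as a term. The replicate numbers did not pair the animals, since same-numbered arrays deviated together at only -0.092 to 0.078; with the replicate number as a block the counts were 25, 70 in S46 and 0 in X50. With each array left out in turn they ran from 24 to 41 in the difference, 43 to 76 in S46 and 0 to 3 in X50. With S46 control 1 and A39 control 2 exchanged the difference gave 30. The cause of these changes was not tested.

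No gene past the threshold changed sign. Of those that did not pass, Gfap ran from -0.40 to 0.097 with each array left out, the latter without S46 control 2, and Gabra6 at -0.049 with the 2 arrays exchanged. The median of the Purkinje list ran from -1.22 to -1.04 over 27 alternatives, and that of the choroid plexus list from -0.18 to 1.01. Detection calls were not used here, so how far a signal stood above background is unknown.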
